A study of Mus musculus with 6 samples.

Results

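Each of the 3 groups of this study was sequenced as a replicate 1 and a replicate 2 library, and the difference between these within each group is described here. The 3 replicate 2 libraries were set against the 3 replicate 1 libraries, which together are all 6 libraries of the series. Of the 24454 genes in the deposited table, 11524 had at least 1 CPM (a gene's reads scaled to the size of its library) in at least 2 libraries, and these were compared. The cells were Py2T, a breast cancer line derived from a mouse mammary gland tumour. The control group is labelled PBS with 0 µM H2O2, although the treatment protocol calls those cells untreated. The replicate 1 libraries of the 3 groups are called series 1 and the replicate 2 libraries series 2. C40 cells had received 40 µM H2O2 and I60 cells 60 µM H2O2 each day over 4 months. The labels name no date of culture, harvest or library preparation. The submitters call the libraries of a group biological duplicates, and whether number 2 marks a shared day in all groups is not given. The same protocol text stands on every library and describes a pair of rRNA depletion kits without saying which library had which. What the replicate contrast holds of culture state, harvest, RNA preparation and library preparation cannot be told apart. A p-value here rests on the spread among 3 pairs of libraries, which the tools combine with the spread of other genes. It measures nothing beyond these libraries.

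The genes are ordered below by programmes that respond to the state of a culture. When amino acids run short or protein folding fails, cells slow translation in general and raise translation of the transcription factor ATF4, which switches on genes of amino acid uptake, amino acid synthesis and tRNA charging. E2F factors switch on genes for DNA replication as cells enter S phase. SREBP factors switch on cholesterol synthesis when membrane sterol is low, and NRF2 switches on detoxifying and antioxidant enzymes.

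The libraries held 48113692 to 60260520 reads, so that 1 read equals 0.0166 to 0.0208 CPM. The epithelial keratins Krt8 (1059 to 1707 CPM) and Krt18 (1325 to 1697 CPM) were abundant in all 6 libraries, whereas the epithelial cadherin gene Cdh1 lay at 529 and 537 CPM in PBS and at 0.187 and 0.129 CPM in I60. Fibroblast markers summed to 6.90 to 46.8 CPM, with Fap, Lum and Thy1 at 0 in every library. Immune markers summed to 7.18 to 39.5 CPM, with Adgre1 and Cd3e at 0. Endothelial markers reached at most 1.23 CPM and adipocyte markers at most 0.88 CPM in sum.

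Replicate 2 differed from replicate 1 in a direction common to all 3 pairs in 1963 genes that were higher (17% of those compared) and 1834 that were lower (15.9%). Every replicate 2 library lay above every replicate 1 library in 373 genes (3.24%) and below it in 278 (2.41%). At least 1.5-fold in all 3 pairs was reached by 76 genes on the higher side (0.659%) and 29 on the lower side (0.252%). Of the 76, 23 belong to the lists of ATF4 targets, serine and one-carbon synthesis, amino acid transporters and tRNA synthetases. Of the 29, 0 do. In the same order these lists hold 21, 11, 10 and 21 of the genes compared. They were chosen with earlier results of these data known, so these counts describe the lists and are no independent evidence. In limma's test of the mean difference over the 3 pairs, no gene passed an adjusted p of 0.05 (0%). The smallest adjusted p was 0.114, shared by 17 genes. At an unadjusted p under 0.05 limma counted 640 genes higher (5.55%) and 480 lower (4.17%). On whole reads, edgeR called 8 higher and 4 lower, and DESeq2 179 higher and 64 lower. The fit has 2 residual degrees of freedom, and an exact sign-flip test over 3 pairs cannot go below p = 0.25. Statements below on the common difference are therefore descriptions of 3 pairs, with limma's SE where given.

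The pairs differed in size. The SD of the log2 difference over all genes was 0.363 in PBS, 0.623 in C40 and 0.379 in I60. At least 2-fold higher in replicate 2 were 51 genes in PBS, 469 in C40 (4.07%) and 191 in I60. At least 2-fold lower were 172 in PBS, 553 in C40 (4.8%) and 26 in I60. Across the 11524 genes the difference in C40 correlated with that in I60 at r = 0.438 and with that in PBS at r = 0.154, and PBS with I60 at r = 0.105. Genes are not independent replicates, and the plot of the C40 pair against the other pairs shows the same spread.

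**Figure D1:**
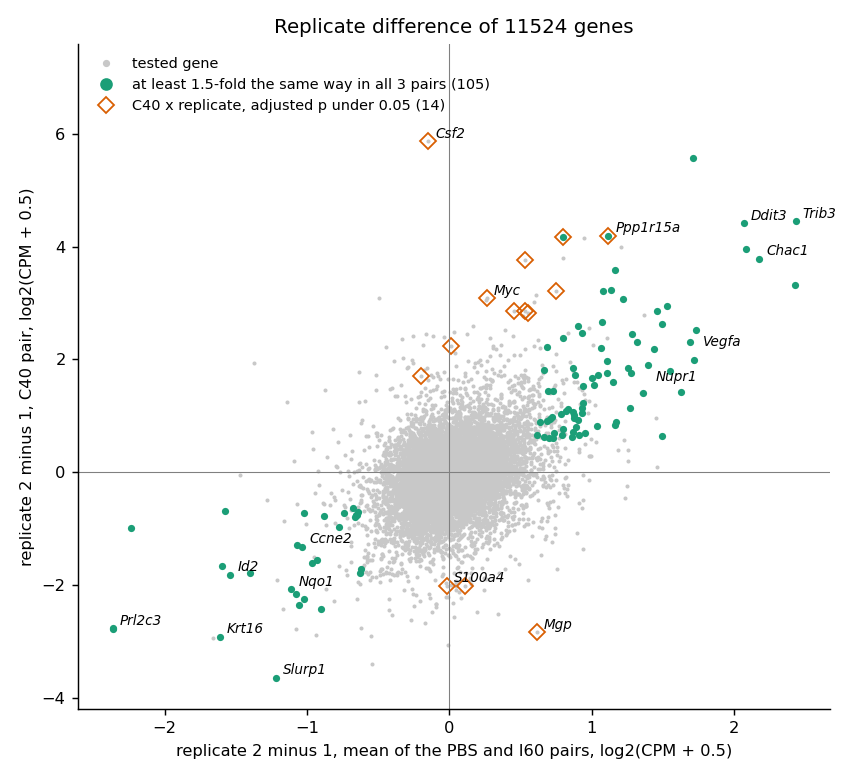
Each point is 1 of 11524 genes, with the replicate 2 minus replicate 1 difference averaged over the PBS and I60 pairs on the x axis and that of the C40 pair on the y axis, both in log2(CPM + 0.5). Green points differed by at least 1.5-fold the same way in all 3 pairs (105 genes, among them Trib3, Chac1 and Ddit3 at the upper right and Prl2c3 and Id2 at the lower left), and open diamonds mark the 14 genes whose C40 difference departed from the other pairs at an adjusted p under 0.05, 11 above and 3 below 0 on the y axis.

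The ATF4 targets of amino acid stress were higher in replicate 2 in every pair. All 21 tested members of the list of 24 were higher in each of the groups, and 14 of them by at least 1.5-fold in each pair. Over all genes tested these shares were 17% and 0.659%. Their median log2 difference was 0.845 in PBS, 1.90 in C40 and 1.55 in I60, against -0.02, -0.04 and 0.06 over all genes tested. At unadjusted p under 0.05, limma counted all 21 as higher, against 5.55% of all genes, and at adjusted p under 0.05 none (0 of 21). The difference was larger in C40 than in I60 and larger in I60 than in PBS for 16 of the 21, an order found in 2157 of 11524 genes. Every replicate 2 library lay above every replicate 1 library for 16 of the 21, against 373 of 11524 genes (3.24%). The list was chosen with earlier results of these data known, so the count describes it and is no independent evidence. Of the 3 members outside the comparison, Vldlr, the very low density lipoprotein receptor, was at 0 throughout. Gdf15, a stress-induced secreted factor, reached 2.502 CPM in C40 replicate 2 and at most 0.166 CPM elsewhere. Stc2, a secreted glycoprotein, reached 0.607 CPM in C40 replicate 2 and at most 0.0416 CPM elsewhere. Just inside the limit of 1 CPM in 2 libraries was Fgf21, the secreted metabolic hormone, which was at 0.385, 0 and 0 CPM in the replicate 1 libraries of PBS, C40 and I60 and at 1.43, 3.13 and 1.23 CPM in replicate 2.

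The regulators of the pathway come first, with values given in the order PBS, C40 and I60. Atf4 itself was at 438, 368 and 386 CPM in replicate 1 and at 788, 1251 and 1001 CPM in replicate 2, so that every replicate 2 library lay above every replicate 1 library. Its mean log2 difference was 1.33 ± 0.19 (limma adjusted p = 0.139). This and later ± values are limma's SE. It draws on the variance of all genes tested and is not the spread of the 3 pairs alone. Atf3, a stress-induced factor of the same leucine zipper family, was at 13.0, 5.59 and 5.04 CPM in replicate 1 and at 22.3, 290.1 and 34.6 CPM in replicate 2. Ddit3, which encodes the factor CHOP of the later and death-prone phase of the response, was at 8.59, 6.17 and 4.48 CPM in replicate 1 and at 21.0, 141.8 and 36.3 CPM in replicate 2. For Atf3 and Ddit3 too the groups of libraries did not overlap, and C40 replicate 2 stood far above the other replicate 2 libraries. The mean log2 differences were 2.999 ± 0.78 for Atf3 (limma adjusted p = 0.369) and 2.85 ± 0.52 for Ddit3 (limma adjusted p = 0.282). Trib3, a pseudokinase that feeds back on this response, was at 69.6, 26.8 and 25.4 CPM in replicate 1 and at 259, 595 and 203 CPM in replicate 2. Its fold difference was 3.70 in PBS, 21.9 in C40 and 7.84 in I60, with a mean log2 difference of 3.103 ± 0.42 (limma adjusted p = 0.114). Over the 7 other settings and tools, limma, edgeR and DESeq2, its adjusted p ran from 8.62e-14 to 0.672. Jdp2, a repressor that pairs with ATF3-type factors, was at 6.34, 14.5 and 11.9 CPM in replicate 1 and at 19.6, 39.7 and 39.6 CPM in replicate 2. Unlike Atf3, it differed by about the same amount in each pair, with log2 differences of 1.56, 1.42 and 1.69. Nupr1, a small stress-induced chromatin protein, was at 134.5, 50.7 and 44.2 CPM in replicate 1 and at 319.8, 191.2 and 129.9 CPM in replicate 2.

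**Figure D2:**
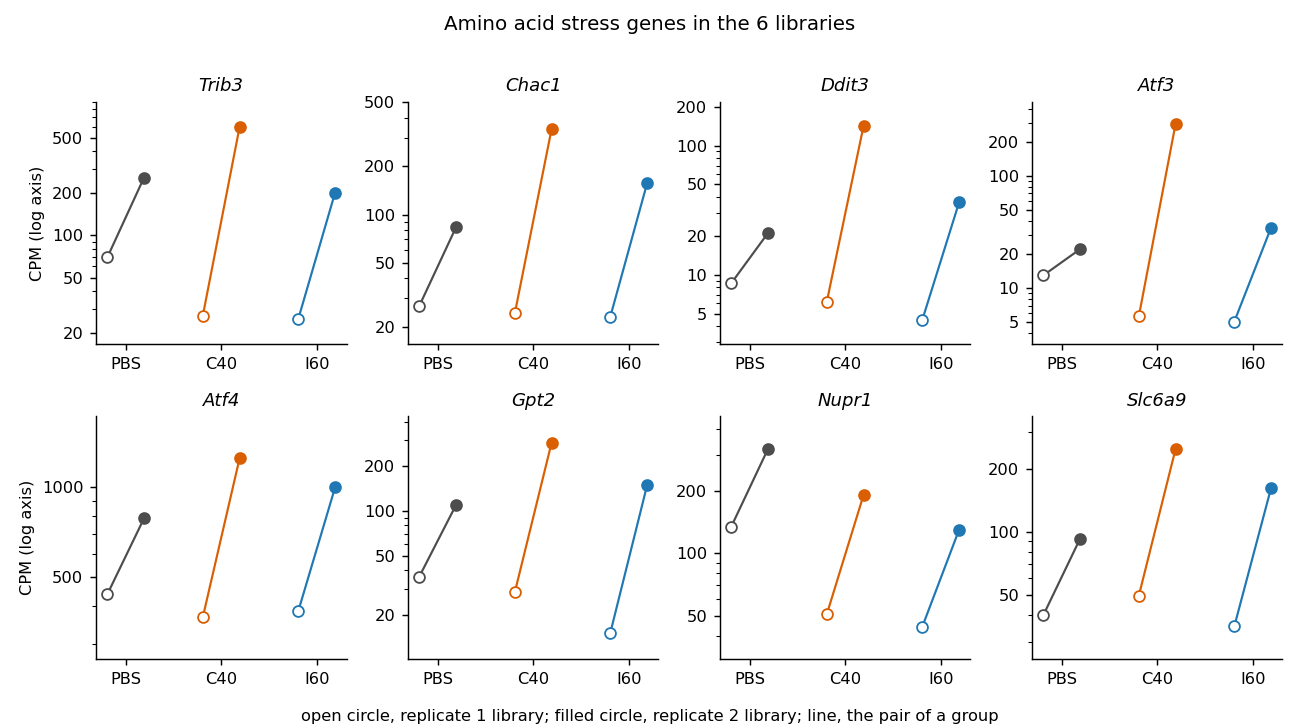
CPM on a log axis in the 6 libraries for 8 amino acid stress genes, with open circles for replicate 1, filled circles for replicate 2 and a line for the pair of each group. Every line slopes upward, for example Nupr1 in PBS (134.5 to 319.8 CPM) and Atf3 in C40 (5.59 to 290.1 CPM).

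The promoters of the amino acid stress genes were searched for letters that ATF4 and its partners are known to bind, and most held none. The core of the amino acid response element, TGATGNAA on either strand, was searched in the 250 bases before each RefSeq start site (GRCm38.p6, the build also named mm10). It was present for 7 of 18 tested ATF4 targets with a window (38.9%), 1 of 7 amino acid transporters, 1 of 10 serine and one-carbon genes and 3 of 14 tRNA synthetases, against 3.91% of all 27025 genes with a window. The share over all genes, here and for the motifs below, also counts genes outside the 11524 compared, while list members were all among these. A match is a description of the letters and not a measured site. Trib3 and Gpt2 have no match in their windows, and Ddit3 has none either. The windows of 5 genes with a match are printed 5′ to 3′ on the gene's strand, since they show how the same letters stand at different distances from the start, with the match in capitals.
Chac1 (chr2:119350992-119351241, plus strand): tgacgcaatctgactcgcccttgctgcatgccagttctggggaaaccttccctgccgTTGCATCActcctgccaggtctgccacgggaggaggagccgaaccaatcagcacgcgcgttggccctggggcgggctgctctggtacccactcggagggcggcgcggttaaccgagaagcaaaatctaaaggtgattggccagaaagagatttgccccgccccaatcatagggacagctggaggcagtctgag
Nupr1 (chr7:126625471-126625720, minus strand): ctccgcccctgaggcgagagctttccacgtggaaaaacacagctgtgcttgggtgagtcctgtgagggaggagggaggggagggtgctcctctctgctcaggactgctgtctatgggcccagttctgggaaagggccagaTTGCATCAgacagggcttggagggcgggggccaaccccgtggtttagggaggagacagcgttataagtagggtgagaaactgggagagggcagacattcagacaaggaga
Jdp2 (chr12:85599166-85599415, plus strand): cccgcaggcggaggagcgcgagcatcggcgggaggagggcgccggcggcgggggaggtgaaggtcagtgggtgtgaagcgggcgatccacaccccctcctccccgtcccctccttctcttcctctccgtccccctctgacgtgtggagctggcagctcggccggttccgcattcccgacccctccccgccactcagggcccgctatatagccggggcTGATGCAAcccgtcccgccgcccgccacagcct
Asns (chr6:7693210-7693459, minus strand): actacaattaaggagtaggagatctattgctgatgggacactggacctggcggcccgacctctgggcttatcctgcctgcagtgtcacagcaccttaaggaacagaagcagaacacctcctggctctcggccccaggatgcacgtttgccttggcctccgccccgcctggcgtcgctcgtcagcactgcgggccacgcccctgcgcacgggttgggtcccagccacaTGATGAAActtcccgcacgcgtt
Atf3 (chr1:191183334-191183583, minus strand): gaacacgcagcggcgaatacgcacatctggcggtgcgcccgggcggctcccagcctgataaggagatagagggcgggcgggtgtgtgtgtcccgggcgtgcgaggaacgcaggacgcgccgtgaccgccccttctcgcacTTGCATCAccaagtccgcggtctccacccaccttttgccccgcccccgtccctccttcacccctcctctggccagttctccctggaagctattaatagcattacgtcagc
The matches begin 193 bases before the start of Chac1, 110 before Nupr1 and Atf3, 33 before Jdp2 and 23 before Asns. In Chac1, Nupr1 and Atf3 the printed letters are the reverse complement, TTGCATCA, while Jdp2 reads TGATGCAA and Asns TGATGAAA in the gene's own direction.

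Effector genes of the response were higher in the same libraries. Chac1 (chr2:119351242-119354326), which degrades glutathione, was at 26.9, 24.2 and 23.1 CPM in replicate 1 and at 83.3, 340.5 and 156.5 CPM in replicate 2. Gpt2, the mitochondrial alanine transaminase, was at 36.1, 28.4 and 15.2 CPM in replicate 1 and at 109.9, 288 and 149.2 CPM in replicate 2. The replicate 1 libraries lay close together for Chac1 and ran from 15.2 to 36.1 CPM for Gpt2. For both genes the replicate 2 libraries lay above them and apart from each other. The mean log2 differences were 2.71 ± 0.36 and 2.72 ± 0.34 (limma adjusted p = 0.114 for each). Asns, asparagine synthetase, was at 269.5, 342 and 336 CPM in replicate 1 and at 389, 1191 and 659 CPM in replicate 2. Sesn2, a sestrin that restrains mTORC1 when leucine is short, was at 31.0, 37.0 and 71.2 CPM in replicate 1 and at 52.1, 122.7 and 145.4 CPM in replicate 2, and I60 replicate 1 thus lay above PBS replicate 2. Ddit4, another brake on mTORC1, went against the order of the list, with a log2 difference of 2.15 in PBS, 0.63 in C40 and 0.84 in I60. Its levels were 91.2, 174.1 and 214.7 CPM in replicate 1 and 405, 270.3 and 386 CPM in replicate 2.

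Amino acid transporters were mostly higher as well. Of 10 tested, 9 were higher in all 3 pairs and 0 lower, 9 of them at an unadjusted p under 0.05 in limma and 0 at an adjusted p under 0.05. Over all genes tested, 17% were higher in all 3 pairs and 15.9% lower, and limma counted 5.55% as higher at an unadjusted p under 0.05. The list's median log2 difference was 0.41 in PBS, 1.61 in C40 and 0.79 in I60. Slc6a9, a glycine transporter, was at 40.0, 49.5 and 35.5 CPM in replicate 1 and at 92.5, 247.7 and 161.6 CPM in replicate 2 (mean log2 difference 1.89 ± 0.23, limma adjusted p = 0.114). Slc7a11, the cystine importer that both ATF4 and NRF2 control, was at 11.2, 5.40 and 6.61 CPM in replicate 1 and at 19.4, 44.9 and 34.2 CPM in replicate 2. Slc3a2 and Slc7a5 encode the chains of the large neutral amino acid transporter. Slc3a2 was at 194.7, 221.5 and 229.9 CPM in replicate 1 and at 260, 946 and 485 CPM in replicate 2. Slc7a6, a cationic amino acid exchanger, was the exception, with log2 differences of -0.03, 0.21 and -0.17.

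In serine, glycine and one-carbon synthesis, 9 of 11 tested genes were higher in all 3 pairs and 1 was lower (at unadjusted p under 0.05 in limma 9 and 1, at adjusted p 0 and 0). The shares of all genes tested were 17% and 15.9%, and at unadjusted p under 0.05 in limma 5.55% and 4.17%. Psph, the last enzyme of serine synthesis, was at 58.2, 43.7 and 28.4 CPM in replicate 1 and at 98.3, 219 and 106.4 CPM in replicate 2. The enzymes before it in the same route differed less, with log2 differences of 0.30, 0.68 and 0.15 for Phgdh and 0.25, 0.51 and 0.34 for Psat1. Of the folate enzymes, the mitochondrial Mthfd2 was at 188, 121.7 and 129.6 CPM in replicate 1 and at 288, 439 and 283 CPM in replicate 2. Mthfd1, its cytosolic relative, was the lower one, with log2 differences of -0.10, -0.47 and -0.41. The mitochondrial Shmt2 was higher in every pair (0.44, 0.98 and 0.22) while the cytosolic Shmt1 took both signs (0.01, 0.14 and -0.41).

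Cytosolic tRNA synthetases were split. Of 21 tested, 13 were higher in all 3 pairs and 2 lower, against 17% and 15.9% of all genes tested. Their medians were 0.22 in PBS, 1.05 in C40 and 0.41 in I60. In limma 12 of the 21 passed an unadjusted p under 0.05, all higher, against 5.55% of all genes, and 0 passed an adjusted one. Sars, for serine, was at 328, 293 and 369.7 CPM in replicate 1 and at 493, 1038 and 616 CPM in replicate 2. Nars, for asparagine, was at 418, 415.5 and 394 CPM in replicate 1 and at 558, 1208 and 709.9 CPM in replicate 2. In contrast Kars, for lysine, was at 402.5, 394 and 479 CPM in replicate 1 and at 369.9, 344 and 422 CPM in replicate 2, with its lower value in replicate 2 of each group. Hars, for histidine, was also lower in every pair, by log2 differences of -0.14, -0.04 and -0.25.

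Outside these lists, other genes stood high in replicate 2 of every pair. Vegfa, the endothelial growth factor that ATF4 and hypoxia are both known to raise, was at 36.8, 35.9 and 22.2 CPM in replicate 1 and at 104.7, 209.1 and 88.3 CPM in replicate 2. Mettl7b, a membrane-bound methyltransferase, was at 15.4, 7.23 and 10.9 CPM in replicate 1 and at 48.4, 26.3 and 31.2 CPM in replicate 2, with nearly equal log2 differences of 1.62, 1.79 and 1.48. Tsc22d3, the glucocorticoid-induced leucine zipper gene, was at 7.37, 13.7 and 9.10 CPM in replicate 1 and at 20.0, 55.6 and 39.1 CPM in replicate 2. These 3 genes were named for a large difference in all pairs, and their replicate 2 libraries lay above the replicate 1 libraries without overlap. Herpud1, which serves protein degradation at the endoplasmic reticulum, was higher by 1.14, 1.40 and 1.58 on the log2 scale. It belongs to a list of 17 endoplasmic reticulum stress genes, of which 4 were higher in all 3 pairs (Herpud1, Xbp1, Dnajb9 and Sel1l) and 4 lower, against 17% and 15.9% of all genes tested. Among the lower was Calr, the chaperone calreticulin, which differed by -0.40, -0.85 and -0.49.

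Fewer genes were lower in replicate 2 of every pair, and several of these are expressed at low levels. Id2 (chr12:25093799-25096092), an inhibitor of basic helix-loop-helix factors, was at 24.3, 16.3 and 4.27 CPM in replicate 1 and at 7.24, 4.25 and 1.31 CPM in replicate 2. Its mean log2 difference of -1.63 ± 0.21 (limma adjusted p = 0.114) came from near equal differences of -1.68, -1.83 and -1.40. The groups of libraries overlapped all the same, since I60 replicate 1 lay below PBS replicate 2. Id1 and Id3, of the same family, were also lower in every pair, by -0.76, -1.51 and -0.39 for Id1 and -0.11, -1.37 and -0.51 for Id3. Ccnb1ip1, a ubiquitin ligase that acts on cyclin B, was at 14.1, 7.25 and 16.8 CPM in replicate 1 and at 4.80, 1.75 and 6.32 CPM in replicate 2. Slurp1, a secreted protein of keratinized epithelia, was at 65.3, 19.6 and 12.9 CPM in replicate 1 and at 25.3, 1.10 and 5.80 CPM in replicate 2. Arc, a neuronal early response gene, was at 5.81, 4.82 and 18.3 CPM in replicate 1 and at 2.42, 0.534 and 8.86 CPM in replicate 2. Sprr1b, a cornified envelope protein, was at 5.50, 0.499 and 21.2 CPM in replicate 1 and at 0.78, 0 and 4.07 CPM in replicate 2. Prl2c3, a prolactin-family gene, was at 6.58, 8.73 and 1.35 CPM in replicate 1 and at 0.282, 0.846 and 0.129 CPM in replicate 2. It shares near-identical copies with Prl2c2 and another gene of that cluster, and no label says how their reads were divided, so its level is uncertain.

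Many proliferation genes were lower in replicate 2, with a smaller median difference in PBS than in C40 and I60. In bulk RNA, fewer dividing cells and less of these RNAs per dividing cell cannot be told apart. Of 25 tested genes of DNA replication and S phase entry, 15 were lower in all 3 pairs and 1 higher, against 15.9% and 17% of all genes tested. Their medians were -0.03 in PBS, -0.92 in C40 and -0.38 in I60. At an unadjusted p under 0.05 limma counted 11 lower and 0 higher, against 4.17% and 5.55% of all genes, and 0 at an adjusted one. Ccne2, cyclin E2, was at 34.1, 14.9 and 20.5 CPM in replicate 1 and at 14.6, 5.61 and 10.98 CPM in replicate 2 (mean log2 difference -1.13 ± 0.19, limma adjusted p = 0.252). Its partner Ccne1 was at 66.0, 51.4 and 62.9 CPM in replicate 1 and at 58.6, 14.1 and 25.9 CPM in replicate 2. Cdc6, which loads the replicative helicase, was at 84.5, 64.4 and 58.4 CPM in replicate 1 and at 66.5, 18.9 and 26.7 CPM in replicate 2. The helicase subunit Mcm5 was at 401, 525.5 and 478 CPM in replicate 1 and at 366, 223 and 304 CPM in replicate 2, so that treated and control cells changed rank between the replicate series. E2f1, the factor itself, differed by 0.05, -0.79 and -0.45 on the log2 scale. Cdt1, the licensing factor, was the 1 member higher in every pair (0.25, 0.57 and 0.13).

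E2F sites are rare letters in these windows. TTTGGCGC on either strand was found in 3 of 19 replication genes with a window (15.8%) and in 0.485% of all genes, and TTTCCCGC in 2 of 19 (10.5%) and in 1.03% of all genes. The window of Mcm5 is printed because this gene's rank changed between series, with the match, on the reverse strand, in capitals.
Mcm5 (chr8:75109259-75109508, plus strand): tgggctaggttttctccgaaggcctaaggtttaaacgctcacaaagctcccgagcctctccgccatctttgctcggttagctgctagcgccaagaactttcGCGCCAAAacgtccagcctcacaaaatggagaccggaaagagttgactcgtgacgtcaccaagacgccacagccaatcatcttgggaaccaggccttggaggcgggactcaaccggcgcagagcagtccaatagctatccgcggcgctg
The match begins 149 bases before the start.

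Mitosis genes were divided by group. Of 22 tested, 10 were lower in all 3 pairs and 0 higher, against 15.9% and 17% of all genes tested. Their medians were -0.21 in PBS, -0.75 in C40 and -0.32 in I60. In limma 13 were lower at an unadjusted p under 0.05, against 4.17% of all genes, and 0 at an adjusted one. All 22 were lower in C40 replicate 2, 17 were lower in PBS and 15 in I60. Of all 11524 genes, 6180 were lower in C40, 6109 in PBS and 4805 in I60. Ccnb1, cyclin B1, was at 99.0, 79.2 and 85.3 CPM in replicate 1 and at 81.4, 50.4 and 60.9 CPM in replicate 2. Mki67, the Ki-67 proliferation antigen, was at 816, 365 and 244.5 CPM in replicate 1 and at 439, 163.7 and 280 CPM in replicate 2, lower in PBS and C40 but not in I60. Top2a, the topoisomerase of chromosome condensation, likewise differed by -0.51, -0.56 and 0.09. Cenpf and Cenpe, which bind kinetochores, had their larger difference in PBS (-1.19 and -1.06) and a positive one in I60 (0.29 and 0.42). Plk1, the polo-like kinase, showed the reverse order, with 0.05 in the PBS pair, -1.19 in the C40 pair and -0.85 in the I60 pair. The promoters of 15 of 17 mitosis genes with a window held CCAAT on either strand (88.2%, against 37.5% of all genes), and 7 held TTTGAA (41.2%, against 18.3%). Cdkn1a, the inhibitor p21, was at 128.7, 116 and 233 CPM in replicate 1 and at 136.6, 202.6 and 245.7 CPM in replicate 2. Ccnd1, cyclin D1, took both signs (0.15, -0.72 and -0.40).

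Redox genes were lower in replicate 2 for some NRF2 targets and not for others. Of 27 tested NRF2 targets, 13 were lower in all 3 pairs and 3 higher, against 15.9% and 17% of all genes tested. At an unadjusted p under 0.05 limma counted 10 lower and 2 higher, against 4.17% and 5.55% of all genes, and 0 at an adjusted one. Nqo1, a quinone reductase, was at 12.9, 3.16 and 1.67 CPM in replicate 1 and at 5.23, 0.368 and 0.589 CPM in replicate 2 (mean log2 difference -1.43 ± 0.27, limma adjusted p = 0.283). The replicate 1 libraries of C40 and I60 already lay below PBS replicate 2. Gsta4, a glutathione transferase for lipid aldehydes, was at 43.9, 35.6 and 31.2 CPM in replicate 1 and at 17.6, 7.58 and 16.9 CPM in replicate 2, with no overlap. Gclm, a subunit of the first enzyme of glutathione synthesis, differed by -0.28, -0.84 and -0.75. Srxn1, sulfiredoxin, differed by -0.45, -0.82 and -0.44, and Txnrd1, thioredoxin reductase, by -0.23, -0.47 and -0.23. Gsr, glutathione reductase, differed by -0.08, -0.54 and -0.24, and Hmox1, haem oxygenase, by -0.43, -0.07 and -0.13. Fth1, the ferritin heavy chain, was at 1996, 3940 and 2554 CPM in replicate 1 and at 1461, 2213 and 1699 CPM in replicate 2. The 3 members higher in every pair were Slc7a11, given above, Sqstm1, an autophagy receptor (0.51, 1.67 and 0.46), and Tkt, transketolase (0.47, 0.07 and 0.27). The core of the antioxidant response element, TGACNNNGC, was in the window of 6 of 22 NRF2 targets (27.3%) and of 11.5% of all genes.

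Enzymes that remove peroxide and superoxide were mostly lower in C40 replicate 2, and most had no direction common to the 3 pairs. Of 25 tested, 9 were lower in all 3 pairs and 2 higher, against 15.9% and 17% of all genes tested, with medians of -0.05, -0.16 and -0.10. In C40 21 of the 25 were lower, and 2 of them, Prdx1 and Sod3, at least 2-fold. Over all 11524 genes 6180 were lower in C40, and 553 at least 2-fold. Sod3, the extracellular superoxide dismutase, differed by -0.58, -2.90 and -0.53. Gpx1, a glutathione peroxidase, was at 199.5, 224 and 156.3 CPM in replicate 1 and at 137.7, 138.8 and 104.4 CPM in replicate 2. Prdx1, peroxiredoxin 1, was at 484, 889 and 2909 CPM in replicate 1 and at 441, 439 and 2967 CPM in replicate 2, so that the C40 library of series 1 lay above both PBS libraries and that of series 2 did not. Cat, catalase, took both signs (-0.04, -0.72 and 0.13).

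**Figure D3:**
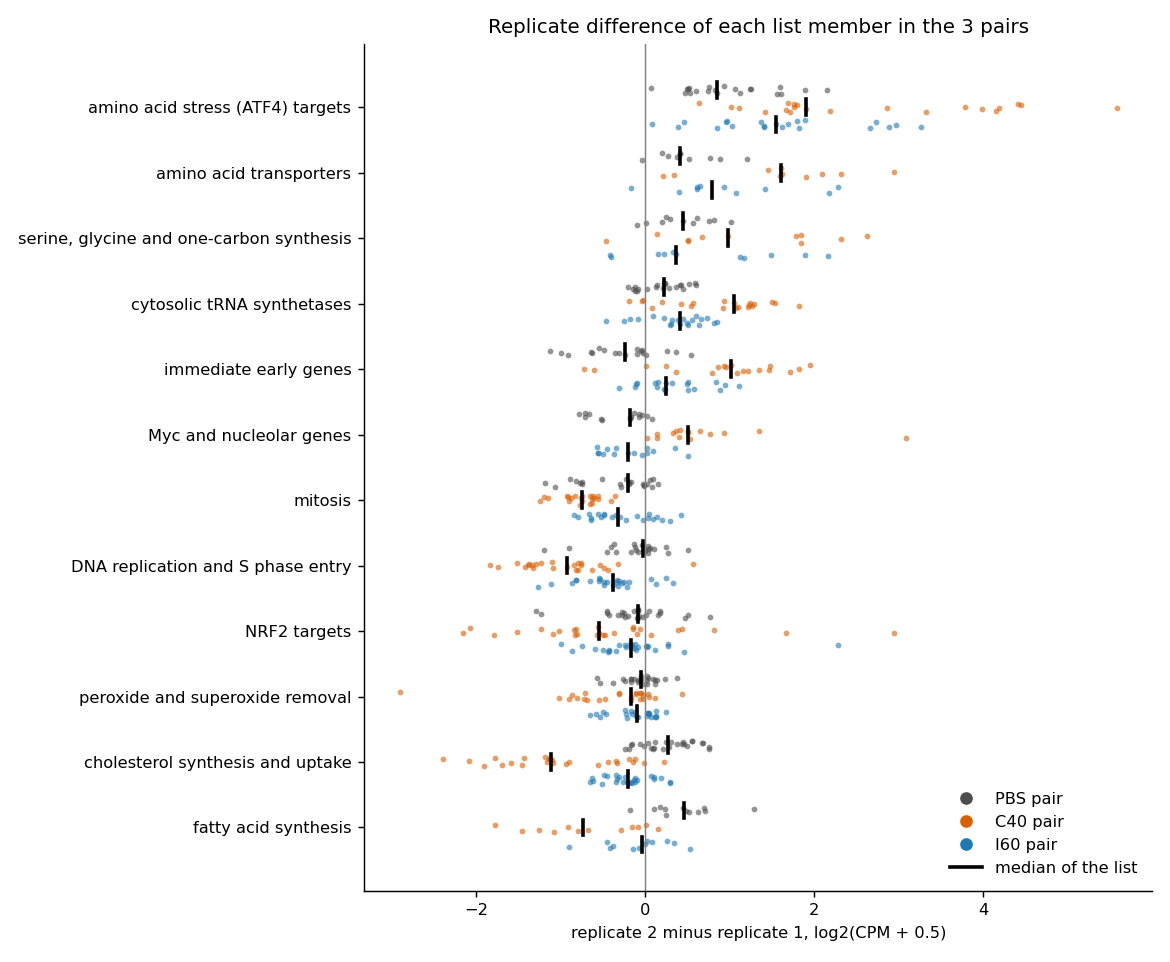
Each dot is 1 tested member of 12 gene lists, plotted at its replicate 2 minus replicate 1 difference in log2(CPM + 0.5) on the x axis, in grey for the PBS pair, orange for C40 and blue for I60, with black bars for list medians. The 4 amino acid lists have medians to the right of 0, with C40 medians of 1.90, 1.61, 0.98 and 1.05, while the sterol and fatty acid lists have medians to the left in C40 (-1.11 and -0.73) and to the right in PBS (0.27 and 0.46).

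Sterol genes did not share a direction over the 3 pairs. Of 26 tested genes of cholesterol synthesis and uptake, 4 were lower in all 3 pairs and 0 higher, against 15.9% and 17% of all genes tested. The medians were 0.27 in PBS, -1.11 in C40 and -0.20 in I60. In PBS 20 of the 26 were higher in replicate 2, in C40 25 were lower and in I60 20 were lower. The same counts over all 11524 genes were 5357, 6180 and 4805. At least 2-fold lower in C40 were 15 of the 26, against 553 of 11524 genes (4.8%). Of these 15, 11 differed by under 1.5-fold in both other pairs, against 365 of 11524 genes (3.17%). Hmgcs1, the synthase at the head of the pathway, was at 334, 147.4 and 134.3 CPM in replicate 1 and at 293, 38.9 and 85.5 CPM in replicate 2. Insig1, which holds SREBP back in the endoplasmic reticulum, was at 124.1, 62.1 and 38.8 CPM in replicate 1 and at 170.9, 17.7 and 31.2 CPM in replicate 2. In both of these genes C40 replicate 2 was the lowest library, and PBS stood above the treated lines in both series. Idi1, an isomerase of the pathway, differed by -0.17, -1.44 and -0.13 on the log2 scale, Sqle, squalene epoxidase, by 0.21, -0.43 and -0.33, and Dhcr7 by 0.12, -0.90 and -0.12. Without the C40 pair the median of the mean difference for the list was 0.0395, against -0.30 with it, and Insig1, Dhcr7 and the sterol exporter Abca1 turned to 0.075, 0.001 and 0.057. The limma test of the C40 difference against the other pairs gave an adjusted p of 0.0813 for Hmgcs1 and for Insig1, above the threshold.

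The fatty acid genes lay in the same order, with medians of 0.46, -0.73 and -0.04. Fasn, fatty acid synthase, was at 1844, 1311 and 1094 CPM in replicate 1 and at 2174, 478 and 585 CPM in replicate 2. Elovl6, an elongase, was at 201.8, 60.0 and 66.7 CPM in replicate 1 and at 178, 17.2 and 48.7 CPM in replicate 2. The sterol regulatory element TCACNCCAC was found in the window of 1 of 18 sterol genes, Hmgcs1, and in 1.22% of all genes, and in 0 of 9 fatty acid genes. The window of Hmgcs1 is printed with that match, 137 bases before the start, in capitals.
Hmgcs1 (chr13:119690101-119690350, plus strand): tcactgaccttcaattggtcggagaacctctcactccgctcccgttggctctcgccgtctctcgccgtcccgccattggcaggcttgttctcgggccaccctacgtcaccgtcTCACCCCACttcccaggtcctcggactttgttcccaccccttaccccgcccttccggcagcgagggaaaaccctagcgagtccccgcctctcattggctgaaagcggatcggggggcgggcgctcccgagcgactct

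**Figure D4:**
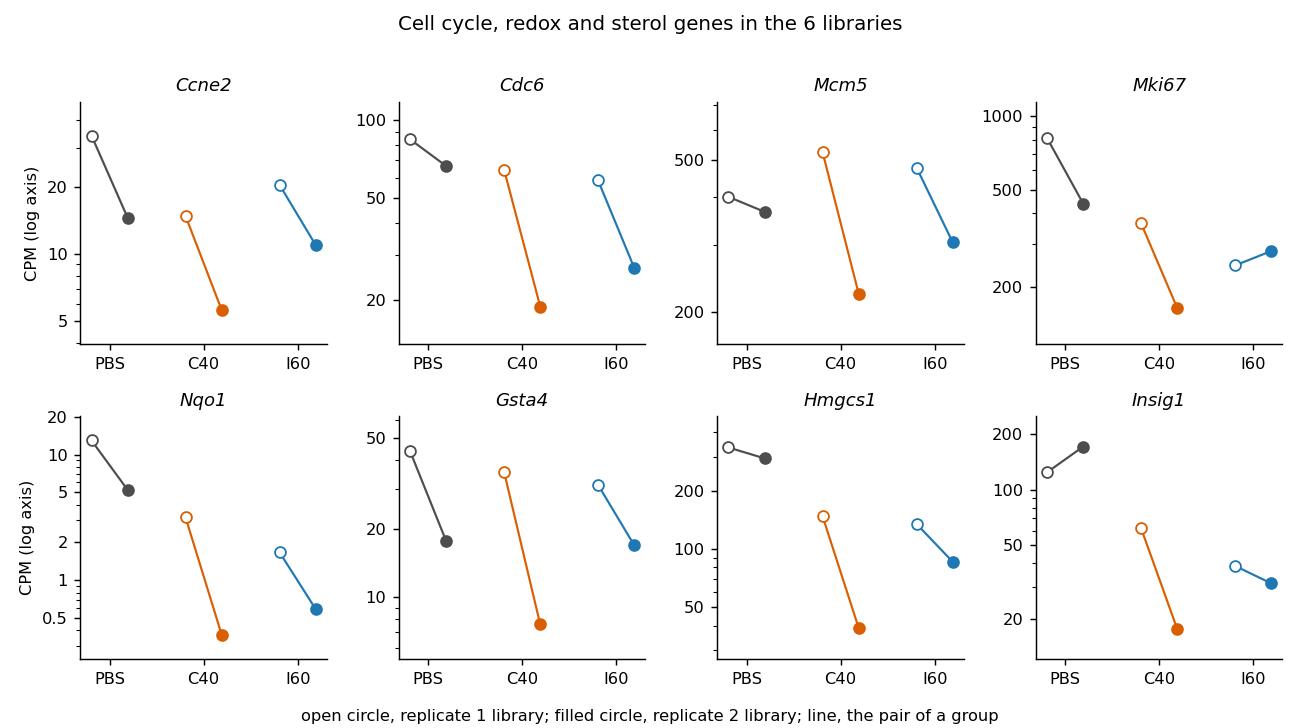
CPM on a log axis in the 6 libraries for 4 cell cycle genes, 2 redox genes and 2 sterol genes, with open circles for replicate 1, filled circles for replicate 2 and a line for the pair of each group. Ccne2, Cdc6, Mcm5, Nqo1 and Gsta4 slope down in every group, Mki67 slopes up in I60 (244.5 to 280 CPM) and Insig1 slopes up in PBS (124.1 to 170.9 CPM).

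The C40 pair was then tested against the PBS and I60 pairs directly. Limma's term for C40 by replicate called 11 genes higher (0.0955%) and 3 lower (0.026%) of 11524, on 1 residual degree of freedom, and 1348 genes passed an unadjusted p under 0.05. That residual is the disagreement of the PBS and I60 differences, so these p-values hold no measure of spread for the C40 pair. Scaling the libraries with TMM factors moved this to 185 higher and 191 lower, edgeR gave 161 and 174, DESeq2 97 and 73, and limma without a filter on low values 0 and 0. All 14 genes were also called by edgeR and by DESeq2. The same term for PBS and for I60 called 0 genes each in limma, with 644 and 132 at an unadjusted p under 0.05. By fold alone, 200 genes were at least 2-fold higher in C40 and under 1.5-fold apart in both other pairs (1.74%), and 365 were lower by the same rule (3.17%).

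The 14 genes included secreted signals. Csf2 (chr11:54247270-54249899), the cytokine GM-CSF, was at 1.26 and 0.73 CPM in PBS replicates 1 and 2, at 0.312 and 47.1 CPM in C40, and at 0.262 and 0.387 CPM in I60. These rest on 15 and 2561 reads in the C40 libraries. The C40 difference rose above the others by 6.02 ± 0.50 on the log2 scale (SE, limma adjusted p = 0.0053). Hbegf, a ligand of the EGF receptor, was at 104.1 and 91.2 CPM in PBS, 48.9 and 231.9 CPM in C40 and 36.7 and 42.6 CPM in I60. Angptl6, an angiopoietin-like factor, was at 1.47 and 2.26 CPM in PBS, 0.707 and 15.9 CPM in C40 and 0.487 and 0.976 CPM in I60. In all 3, C40 was below PBS in series 1 and above it in series 2, as it was in 8 of the 11 genes called higher. The other 5 of these 8 were Myc, Chka, Fosl1, Pvr and Stbd1.

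Transcription factors and stress regulators were also among the 14. Myc (chr15:61985341-61990361) was at 718 and 726 CPM in PBS, 376 and 3203 CPM in C40 and 564 and 802 CPM in I60, a departure of 2.83 ± 0.30 (limma adjusted p = 0.019). Fosl1, an AP-1 subunit, was at 158.8 and 128.3 CPM in PBS, 129.5 and 426 CPM in C40 and 162.8 and 152.7 CPM in I60. Ppp1r15a, which encodes the phosphatase subunit GADD34 that restores translation after stress, was at 22.6 and 40.4 CPM in PBS, 23.9 and 446 CPM in C40 and 39.0 and 104 CPM in I60. It is the 1 ATF4 target among the 14: higher in every pair, and by 3.08 ± 0.34 more in C40 than in the others (limma adjusted p = 0.019). Chka, choline kinase, Stbd1, a glycogen-binding protein, and Snhg12, a small nucleolar RNA host gene, were higher in C40 replicate 2 by 2.86, 4.17 and 2.87, against at most 0.97 in PBS or I60.

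Adhesion and matrix genes took both directions. Tnc, the matrix protein tenascin C, was at 70.7 and 104.6 CPM in PBS, 76.3 and 709.7 CPM in C40 and 29.1 and 56.0 CPM in I60. Pvr, the nectin-like poliovirus receptor, was at 81.5 and 115.2 CPM in PBS, 60.3 and 430.5 CPM in C40 and 147.8 and 224 CPM in I60. Thbs1, thrombospondin 1, was at 1348 and 1208 CPM in PBS, 281 and 68.9 CPM in C40 and 76.5 and 99.8 CPM in I60, and its C40 difference departed from the others by -2.13 ± 0.30 on the log2 scale (SE, limma adjusted p = 0.0377). S100a4, a calcium-binding protein of motile cells, was at 739 and 736 CPM in PBS, 1963 and 483 CPM in C40 and 1141 and 1119 CPM in I60. Mgp, matrix Gla protein, was at 0.228 and 0.531 CPM in PBS, 12.97 and 1.38 CPM in C40 and 9.74 and 16.4 CPM in I60. For S100a4 the C40 library of series 1 was the highest of the 6 and that of series 2 the lowest.

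**Figure D5:**
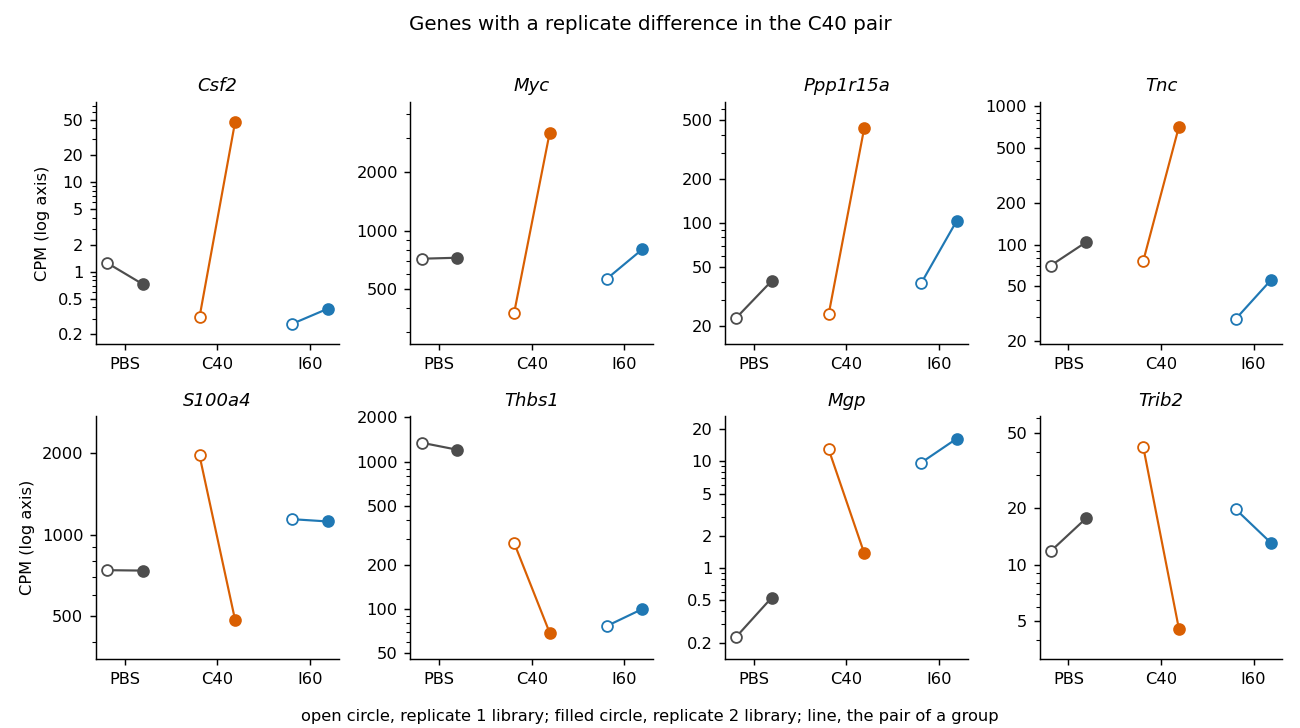
CPM on a log axis in the 6 libraries for 7 genes of the C40 test and for Trib2, with open circles for replicate 1, filled circles for replicate 2 and a line for the pair of each group. The orange C40 lines are the steep ones, upward for Csf2 (0.312 to 47.1 CPM) and Myc (376 to 3203 CPM) and downward for Mgp (12.97 to 1.38 CPM) and Trib2 (42.3 to 4.58 CPM).

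Other genes of the C40 pair alone are given by their size, since they did not pass the limma threshold. On the higher side, Dusp8, a phosphatase of stress kinases, was at 11.7 and 68.3 CPM in C40 and between 20.5 and 37.2 CPM elsewhere (limma adjusted p = 0.06). Thbd, thrombomodulin, was at 7.399 and 41.3 CPM in C40, 104.2 and 98.3 CPM in PBS and at 0.0187 and 0.0184 CPM in I60. Il11, an interleukin-6 family cytokine, was at 2.97 and 20.6 CPM in C40 and at 12.8 and 18.9 CPM in I60. Ank2 and Snhg16 differed by 2.36 and 2.41 in C40. On the lower side, Trib2, a pseudokinase, was at 42.3 and 4.58 CPM in C40 and between 11.8 and 19.7 CPM elsewhere. Epas1, the hypoxia factor HIF-2 alpha, was at 14.1 and 2.43 CPM in C40, and Sod3, given above, at 45.3 and 5.63 CPM. Chdh, choline dehydrogenase, was at 5.28 and 0.441 CPM in C40, and Mxd3, a Max partner that opposes Myc, at 19.7 and 2.67 CPM. Prelp, Kcnj2 and Skida1 were lower by 2.53, 2.57 and 2.48 in C40.

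A list of Myc and 14 nucleolar genes, which Myc is known to raise, was examined as well. All 15 were higher in C40 replicate 2, Myc by 3.09 and the others by 0.02 to 1.35 on the log2 scale, while 13 were lower in PBS and 10 in I60. Of all 11524 genes, 5329 were higher in C40, 6109 lower in PBS and 4805 lower in I60. The list's medians were -0.17, 0.50 and -0.20, and limma called 1 member, Myc, in the C40 test. At an unadjusted p under 0.05 in that test 11 members were higher, against 557 of all 11524 genes. Nop56, a nucleolar RNA protein, was at 203 and 180.2 CPM in PBS, 185 and 472.5 CPM in C40 and 282 and 301 CPM in I60. Ncl, nucleolin, was at 2321 and 1345 CPM in PBS and at 1057 and 1324 CPM in C40.

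Immediate early genes, which growth factors raise within minutes, were also mostly higher in C40 replicate 2. Of 19 tested, 17 were higher there and 2 lower, 10 were at least 2-fold higher and 0 at least 2-fold lower, and the medians were -0.24, 1.02 and 0.24. Over all 11524 genes 5329 were higher in C40 replicate 2, and 469 at least 2-fold (4.07%). Jun was at 42.8 and 22.6 CPM in PBS, 85.4 and 236.7 CPM in C40 and 41.3 and 38.0 CPM in I60. Fos was at 13.8 and 8.80 CPM in PBS, 2.43 and 10.8 CPM in C40 and 2.51 and 2.76 CPM in I60. Klf6 was at 174.8 and 147.8 CPM in PBS, 93.6 and 332.5 CPM in C40 and 72.3 and 129.4 CPM in I60. The 2 lower in C40 were Egr2 (-0.64, -0.72 and 0.89) and Egr3 (-1.12, -0.60 and 0.51). Egr1, of the same family, differed more in I60 than in C40, with log2 differences of -0.54, 0.36 and 1.11. Arc, named above as an early response gene, is not on this list and was lower in every pair (-1.11, -2.36 and -1). Nuclear and small non-coding RNAs differed in these libraries as well. Their sum was 1503 and 866 CPM in PBS, 1099 and 1735 CPM in C40 and 885 and 1520 CPM in I60, and their part in the results was not tested.

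The sign of the C40 against PBS difference was not the same in both replicate series for many genes. In 1650 genes (14.3%) C40 was below PBS in series 1 and above it in series 2, and in 1492 (12.9%) it was above PBS in series 1 and below it in series 2. Among the 1650 were 10 of the 21 ATF4 targets, 14 of 21 tRNA synthetases and 13 of 19 immediate early genes. In series 1, 11 of 21 ATF4 targets were lower in C40 than in PBS, and in series 2, 19 were higher. The same counts over all genes were not taken, so these describe the list alone. Trib3 in C40 was lower than in PBS by 1.36 on the log2 scale in series 1 and higher by 1.197 in series 2. Past 2-fold in both directions were 14 genes, among them Atf3, the EGF receptor ligand Areg and Serpinb2, a protease inhibitor. Areg was at 108.1 and 52.8 CPM in PBS and at 28.4 and 158.6 CPM in C40. Among the 1492 were 10 of 23 glycolysis and hypoxia genes, 9 of 25 DNA replication genes, such as Mcm5, and 8 of 25 genes of peroxide and superoxide removal. In this opposite sense, above PBS by 2-fold in series 1 and below it in series 2, there were 4 genes: Trib2, Mxd3, the organic anion transporter Slco4a1 and Galnt15.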

How the data were processed

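RNA-seq was analysed in 6 libraries of Py2T cells, 2 in each of 3 groups. The authors deposited CPM values for each gene and library. STAR and mm10 are named per the submitters' processing notes, while the aligner's version, gene counter, annotation and strand handling are not stated by the labels. The stated library kit marks strand, but whether counting used it is unknown, so overlapping and antisense genes may share reads. All values were whole multiples of the CPM of 1 read (100% within 0.01 of a whole number), and recovered totals were 48113692 to 60260520 reads per library. Genes with low CPM rest on fewer reads and carry more counting error.

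Of 24454 rows in the table, 73 had no symbol and 24374 were named from RefSeq and 7 from GENCODE. Genes with at least 1 CPM in 2 libraries (11524) were tested on log2(CPM + 0.5) with limma 3.58.1 in R 4.3.3, with group and replicate as terms, and with a C40 by replicate term added for the second test. P-values were two-sided and adjusted by Benjamini-Hochberg over all 11524 genes, with a threshold of 0.05. A log2 difference on this scale understates the change of low genes. Alternatives were pseudocounts of 0.1 and 1, no filter, a filter of 5 CPM, TMM scaling, edgeR 4.0.16 and DESeq2 1.42.0 on the recovered whole reads, and leaving out each library. The scripts were tested on simulated data.

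The replicate numbers come from the sample titles. The numbers were treated as pairing the libraries. Across genes the replicate differences correlated at r = 0.154 for PBS with C40, 0.105 for PBS with I60 and 0.438 for C40 with I60. These are the same differences that the contrast describes, so they cannot show that the numbers mark a shared day. Named genes were 30 anchors, the 8 highest and 8 lowest common to all 3 pairs by their smallest difference with a mean of at least 5 CPM, the 8 highest and 8 lowest of C40 alone, and up to 6 members of each list by CPM or call. Other genes named were chosen after their values were seen. The members and the 40 gene lists were chosen with earlier results of these data known. Of 671 list symbols, 670 were in the table. Promoter windows came from RefSeq (GRCm38.p6). Some members of the sterol list are not reported here.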

Additional observations from a re-analysis of the deposited data

Results flagged for a closer look

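For 14 genes the difference between replicate 2 and replicate 1 in C40 departed from that in PBS and I60 by the limma test of the difference itself, at an adjusted p under 0.05. The values are log2 departures of the C40 pair from the mean of the other pairs. Those above 0 were 6.02 for the cytokine gene Csf2, 3.37 for the glycogen-binding protein gene Stbd1, 3.23 for Angptl6, 3.08 for the translation phosphatase subunit gene Ppp1r15a and 2.83 for Myc. Tnc stood at 2.46, the host gene Snhg12 at 2.41, the choline kinase gene Chka at 2.33, the cell adhesion gene Pvr at 2.28, Hbegf at 2.22 and the AP-1 gene Fosl1 at 1.91. Below 0 were Mgp at -3.45, Thbs1 at -2.13 and S100a4 at -2.004. Each rests on 1 pair of C40 libraries. In 8 of the 11 genes above 0, C40 was below PBS in series 1 and above it in series 2, and of the 3 below 0, S100a4 showed the opposite.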

How the results depend on the processing

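The test of replicate 2 against replicate 1 gave 0 calls in limma with pseudocounts of 0.1 and 1, with no filter and with a filter of 5 CPM. TMM scaling gave 14 genes higher and 4 lower, edgeR 8 and 4, and DESeq2 179 and 64. Leaving out 1 library gave 0 to 25 higher and 0 to 1 lower: PBS replicate 1 left out gave 25 and 1, PBS replicate 2 gave 22 and 0, C40 replicate 1 gave 10 and 1, C40 replicate 2 gave 4 and 1, and either I60 library 0 and 0. The C40 by replicate test, with 11 higher and 3 lower, gave 60 and 45 at a pseudocount of 0.1, 29 and 12 at 1, 0 and 0 with no filter, 28 and 16 at 5 CPM, 185 and 191 with TMM scaling, 161 and 174 in edgeR and 97 and 73 in DESeq2; the cause was not tested. Without either C40 library this term cannot be estimated, and without a PBS or I60 library it has no residual degrees of freedom. Over the libraries left out, the median of the mean difference in the cholesterol list ran from -0.678 to 0.0395, Insig1 from -1.045 to 0.075, Dhcr7 from -0.509 to 0.001 and Abca1 from -0.906 to 0.057, each reversed without a C40 library. With the replicate block, C40 with PBS went from 2333 to 2853 called genes and I60 with PBS from 3122 to 3494. For named genes in the replicate contrast, 473 of the alternative values kept direction and call, 67 passed the threshold where the main one did not, and 6 reversed; in the C40 test these were 215, 64 and 0, and 14 lost the call. At this depth 1 read is 0.0166 to 0.0208 CPM, which limits genes near 1 CPM such as Fgf21.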

Other observations

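Of the 29 genes at least 1.5-fold lower in replicate 2 of every pair, some are known from keratinizing epithelium. The 3 given here were picked after their values were seen, because they were lower, and stand for no gene group. Krt16, a keratin of activated epidermis, was at 157.5, 19.1 and 12.4 CPM in replicate 1 of PBS, C40 and I60 and at 26.5, 2.08 and 7.59 CPM in replicate 2. Krt14, a basal keratin, was at 1426, 275.6 and 23.8 CPM in replicate 1 and at 692, 93.3 and 13.3 CPM in replicate 2. Sbsn, suprabasin, was at 283, 27.8 and 45.9 CPM in replicate 1 and at 96.6, 11 and 30.2 CPM in replicate 2. The levels in the 3 groups differed more than the replicates did for Krt14, and its order PBS, C40, I60 was the same in both series. Limma called none of these 3 genes in the replicate contrast (0 calls over all genes, with 480 lower at an unadjusted p under 0.05 and 4 and 64 lower in edgeR and DESeq2).

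Heat shock and iron genes mostly had no direction common to the 3 pairs. Of 14 heat shock genes tested, 6 were lower in all 3 pairs and 0 higher, against 15.9% and 17% of all genes tested. Hspa1b, an inducible chaperone, was at 65.3, 105.6 and 115.2 CPM in replicate 1 and at 50.1, 14.9 and 33.3 CPM in replicate 2, so that both treated lines were above PBS in series 1 and below it in series 2. Of 11 iron genes, 4 were lower in all 3 pairs and 1 higher, against the same 15.9% and 17%. Tfrc, the transferrin receptor, was at 502, 173.7 and 244.1 CPM in replicate 1 and at 348, 62.7 and 167.4 CPM in replicate 2. Txnip, a glucose-responsive inhibitor of thioredoxin, was nearly equal in the PBS pair (21.2 and 23.3 CPM) but was at 56.7 and 179.6 CPM in C40 and 81.9 and 232.7 CPM in I60. Of 16 clock genes, 4 were higher and 3 lower in all 3 pairs, near the 17% and 15.9% of all genes tested. Ciart, a repressor, was at 3.203, 2.62 and 3.60 CPM in replicate 1 and at 8.33, 25.7 and 8.77 CPM in replicate 2, and Arntl was higher by 0.53, 1.40 and 0.88 on the log2 scale. Hlf, a clock output factor, was lower by log2 differences of -0.58, -2.28 and -1.04.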
